A study of Sus scrofa with 6 samples.

Results

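The mitochondrial ribosomal protein genes, the nuclear genes named MRPL and MRPS, were described here in IPEC-J2 cells, a non-transformed epithelial cell line from the pig jejunum. Members were the rows of the deposited expression table whose gene name began with MRPL or MRPS followed by a digit, summed over the transcripts of each gene. The rule used no measured value and found 67 genes, with 156 transcript rows, among 31908 gene identifiers. Of the members, 42 encode proteins of the large subunit, 24 of the small subunit, and MRPS36 was counted in neither. MRPS30 and MRPS18A were counted in the large subunit, where their proteins sit despite their names. The study compared cells treated with PBS (CON, 3 libraries) with cells treated with 50 μM chenodeoxycholic acid (CDCA, 3 libraries), a primary bile acid, each for 24 h, to ask how the transcriptome of intestinal epithelial cells responds to CDCA. All libraries came from this 1 line, and the labels name no genotype or agent other than PBS and CDCA. Expression was deposited as TPM, a length-normalised share of the library's transcripts, so that levels of different genes can be set side by side over the transcripts listed. Changes are given as the fitted log2 fold change of TPM + 1, CDCA against CON (log2FC), with its standard error after ±, and FDR is limma's p-value adjusted by Benjamini-Hochberg over all genes tested.

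The mitochondrial ribosome makes the few proteins that mitochondrial DNA encodes, all of them core subunits of the respiratory chain and of ATP synthase. Its ribosomal RNAs come from mitochondrial DNA, whereas its proteins are encoded in the nucleus, translated in the cytosol and imported. The large subunit joins amino acids and releases the growing chain through its exit tunnel into the inner membrane, and the small subunit binds the mRNA and reads its codons. Some of its proteins descend from bacterial ribosomal proteins, and others are particular to mitochondria. In the intestinal epithelium, mitochondrial respiration supplies ATP for nutrient uptake and for the steady renewal of the cell layer.

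The labelled cell type was checked against markers of the intestinal epithelium and of other cell types. The epithelial genes EPCAM, KRT8 and KRT18 were listed at 122, 226 and 65.6 TPM in CON (means of 3), whereas CDH1, CLDN7, VIL1 and CDX2, which mark junctions, the brush border and intestinal identity, were under 1 TPM, and no gene was named KRT19. None of the 6 fibroblast or 4 muscle markers reached 1 TPM, and the leukocyte marker PTPRC stayed at or below 0.01 TPM. The summed epithelial markers ranged from 410 to 422 TPM in CON and from 418 to 459 TPM in CDCA. Among the 6 leukocyte markers CD68, CD14 and LYZ reached 1 TPM, with a summed level of 19.9 to 21.8 TPM in CON and 22.3 to 24.8 TPM in CDCA. CD68, a lysosomal protein of macrophages, rose from 0.0867 to 4.84 TPM. CD14 (log2FC 0.31 ± 0.12, FDR = 0.071) and LYZ (log2FC -0.16 ± 0.07, FDR = 0.085) did not pass, with CDCA libraries all above CON for CD14 and all below for LYZ. Of the 3 endothelial markers found, only PECAM1 reached 1 TPM, and it fell from 1.66, 2.14 and 1.95 TPM in the CON libraries to 1.12, 1.20 and 1.33 TPM in the CDCA libraries (log2FC -0.39 ± 0.11, FDR = 0.025), while CDH5 and KDR stayed under 1 TPM. The summed endothelial markers ranged from 2.20 to 2.69 TPM in CON and from 1.87 to 2.33 TPM in CDCA. Their part in the results below was not tested. The listed TPM of a library summed to between 351770 and 366073 of the 1000000 that TPM make up, so most of the total lies in transcripts that are not listed. The level and rank of a gene, and a value near 0, therefore hold for its listed transcripts only. Of the listed TPM, 13.8 to 15.0% in CON but 2.90 to 3.45% in CDCA came from the 13 mRNAs of mitochondrial DNA.

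Of the 67 members, 59 averaged 1 TPM or more and were tested. CDCA was followed by lower levels of 25 tested members and higher levels of 10 (FDR under 0.05), and 24 did not pass. Without CDCA replicate 2 the count of members that rose was 6. The replicates were close, with a median coefficient of variation of 6.80% in CON and 5.33% in CDCA over the tested members, whose median level was 21.0 TPM. Most changes were small: 46 of the 59 fitted changes lay within 0.5 of 0 on the log2(TPM + 1) scale, and only MRPS12 passed with a change over 1 in size. The members' median log2 fold change was -0.18 (quartiles -0.36 and 0.06), with 42 below 0 and 17 above. Over all 8708 genes tested the median was 0.05 (quartiles -0.28 and 0.36). In terms of shares, 42.4% of the tested members fell against 23.9% of all genes tested, and 16.9% rose against 29.3%. A change over 1 in size passed in 7.42% of all genes tested. The libraries of the groups did not overlap, with CDCA lower, in 29 members (49.2%, against 27.8% of all genes), and with CDCA higher in 12 (20.3%, against 33.7%). In these bulk samples a change in the RNA of every cell and a change in the number of cells that carry it cannot be told apart.

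**Figure D1:**
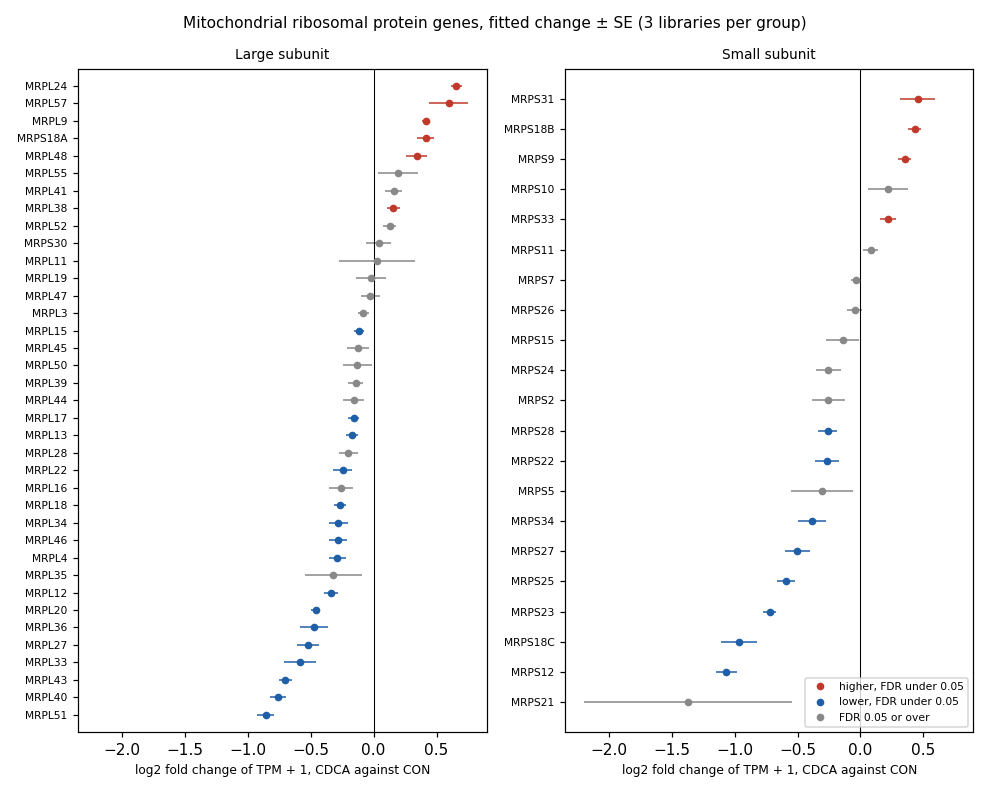
Fitted log2 fold change of TPM + 1, CDCA against CON, for the tested members of the large subunit (37) and the small subunit (21); points are estimates, bars are ± SE, 3 libraries a group. Blue points fell and red points rose with an FDR under 0.05: 16 and 6 in the large subunit, 8 and 4 in the small subunit, and the widest bar is that of MRPS21.

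TPM are shares of a total, and the share held by the mRNAs of mitochondrial DNA differed between the groups. With the 13 mitochondrially encoded genes left out of each library's listed total, 35 members fell and 6 rose. The median of all genes tested then moved from 0.05 to -0.08, and genes that rose went from 55.0% to 38.7% of all that passed. The members' median lay between 0.16 and 0.26 below that of all genes tested under each of the 15 alternative settings. The direction of the members' median was therefore the same under every scaling tried, while the number of members that rose depended on it.

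Summed over its members, the large subunit stood at 1350.5, 1393 and 1340.3 TPM across the 3 CON libraries and 1163, 1203 and 1203 TPM across the 3 CDCA libraries. The group means were 1361 ± 27.9 TPM in CON and 1190 ± 23.6 TPM in CDCA (SD, n = 3), a ratio of 0.874. The small subunit summed to 486, 486 and 464 TPM across the 3 CON libraries and 403, 416 and 412 TPM across the 3 CDCA libraries, with means of 478.6 ± 12.6 and 410.3 ± 6.26 TPM and a ratio of 0.857. In both subunits all CDCA sums lay below all CON sums. All members together made up 0.511 ± 0.0085% of the listed TPM in CON and 0.451 ± 0.0048% in CDCA (SD, n = 3).

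The sums rested on few genes. MRPL20 and MRPL40, the members with the highest mean TPM in the large subunit, together carried 25.0% of its sum in CON and 18.8% in CDCA, and without them the ratio was 0.946. MRPS26 and MRPS23 together carried 37.7% of the small-subunit sum in CON and 34.8% in CDCA, and without them its ratio was 0.897. Of the 10 members with the highest mean TPM, 7 fell, MRPL57 and MRPL9 rose, and MRPS26 did not pass. Of all genes tested 23.9% fell and 29.3% rose. Across the 59 tested members the Pearson correlation of the log2 mean level with the log2 fold change was 0.0014, a description over genes that share the same 6 libraries.

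**Figure D2:**
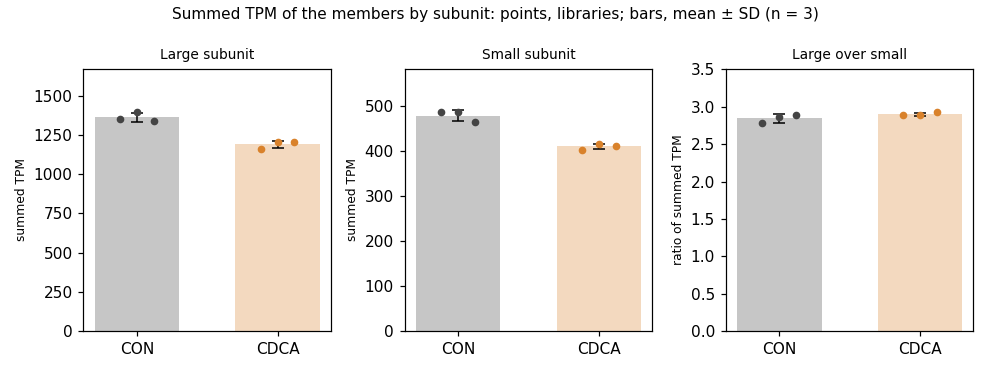
Summed TPM of the large-subunit and small-subunit members and the ratio of the sums, by group; points are libraries, bars are means ± SD (n = 3). The CDCA sums (1163 to 1203 TPM, large; 403.5 to 415.8 TPM, small) lie below the CON sums (1340 to 1393 and 464.0 to 486.0 TPM), and the ratios, 2.78 to 2.89 and 2.88 to 2.92, overlap.

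The subunits were then compared with each other. Among large-subunit members tested (37), 16 fell (43.2%, against 23.9% of all genes tested), 6 rose (16.2%, against 29.3%) and 15 did not pass. They had a median log2 fold change of -0.16 and a range of -0.86 to 0.66. Among small-subunit members tested (21), 8 fell (38.1%), 4 rose (19.0%) and 9 did not pass, with a median of -0.26 and a range of -1.37 to 0.45. Without CDCA replicate 1, or without CDCA replicate 3, 5 small-subunit members fell, and without CDCA replicate 2 the number that rose was 2. The medians differed by 0.098 on the log2 scale (0.033 without CON replicate 2). Taken library by library against the CON mean of each gene, the large-subunit median minus the small-subunit median came to -0.006, -0.023 and 0.035 with PBS and to 0.056, -0.028 and 0.140 with CDCA. These groups overlapped, since CDCA replicate 2 was below all CON libraries. The ratio of the large-subunit sum to the small-subunit sum was 2.84 ± 0.058 in CON and 2.90 ± 0.021 in CDCA (SD, n = 3), again with overlapping libraries. A difference between the subunits was therefore not resolved at this number of libraries.

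**Figure D3:**
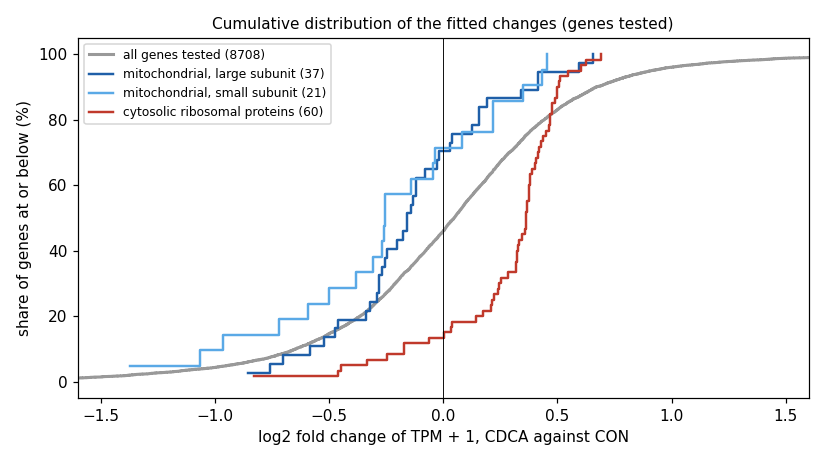
Cumulative share of genes (y axis, %) at or below each fitted log2 fold change of TPM + 1 (x axis, CDCA against CON), for all 8708 genes tested, the large-subunit (37) and small-subunit (21) members, and the cytosolic ribosomal proteins (60). Both mitochondrial curves lie left of the curve of all genes over most of the range (medians -0.16 and -0.26 against 0.05), and the cytosolic curve lies right of it (median 0.36).

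Among large-subunit members the falls were led by MRPL51, MRPL40 and MRPL43, all of them proteins particular to mitochondria. MRPL51 (ENSSSCG00000039662) stood at 41.4, 41.6 and 42.9 TPM in CON against 21.0, 25.1 and 22.3 TPM in CDCA. Its CDCA mean was 0.543 times its CON mean, a log2 fold change of -0.86 ± 0.07 (FDR = 9.7e-05), and no library overlapped between the groups. MRPL40 of the central protuberance, the crown of the large subunit that faces the small one, was among the most abundant members, at 165, 182 and 159.7 TPM across the CON libraries and 92.7, 102 and 103 TPM across the CDCA ones. Its log2 fold change was -0.76 ± 0.06 (FDR = 0.00013), with both of its listed transcripts lower in CDCA (ratios of means 0.598 and 0.394). MRPL43 was at 44.4, 48.3 and 46.1 TPM with PBS and 28.4, 26.8 and 29.0 TPM with CDCA (log2FC -0.70 ± 0.05, FDR = 7.7e-05). In the RefSeq annotation it overlaps TWNK, the mitochondrial DNA helicase, and reads of the pair may not be separable.

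MRPL33 and MRPL27 completed the 5 largest falls of this subunit, and both have bacterial counterparts. MRPL33 was at 48.4, 44.8 and 34.5 TPM in CON against 27.4, 25.8 and 30.3 TPM in CDCA, with a log2 fold change of -0.58 ± 0.13 (FDR = 0.0084). MRPL27, which lies near the site where peptide bonds form and overlaps EME1 in RefSeq, was at 58.2, 51.7 and 47.6 TPM across the CON libraries and 32.8, 38.2 and 37.8 TPM across the CDCA ones (log2FC -0.52 ± 0.09, FDR = 0.0031). The CON libraries of both genes were more spread than those of MRPL51, yet all of them lay above all CDCA libraries. MRPL20, a protein that binds ribosomal RNA early in assembly, had the highest mean TPM of all members, at 170.1, 174 and 172 TPM with PBS and 123, 129 and 122 TPM with CDCA. Its change of -0.46 ± 0.04 (FDR = 0.0001) was moderate in size and tightly replicated. MRPL12, the stalk protein that recruits elongation factors and also binds the mitochondrial RNA polymerase, was at 88.0, 90.8 and 93.1 TPM in CON against 69.7, 67.9 and 77.2 TPM in CDCA with a change of -0.34 ± 0.06 (FDR = 0.0026).

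The other 9 large-subunit members that fell had changes of -0.48 or smaller in size. MRPL36, which has a bacterial counterpart and was listed at low levels, was at 4.34, 4.72 and 4.65 TPM across the CON libraries and 2.54, 3.59 and 2.95 TPM across the CDCA ones (log2FC -0.48 ± 0.11, FDR = 0.012). MRPL18, which in bacteria binds the small ribosomal RNA of the large subunit, was at 52.8, 54.2 and 50.7 TPM with PBS and 45.1, 43.8 and 41.7 TPM with CDCA (log2FC -0.27 ± 0.05, FDR = 0.0035). MRPL13, an early-binding protein, was at 65.5, 60.4 and 63.6 TPM in CON against 57.5, 53.6 and 56.4 TPM in CDCA (log2FC -0.18 ± 0.05, FDR = 0.02). The CDCA libraries of MRPL18 and MRPL13 were lower by a modest and even amount. MRPL4, MRPL46, MRPL34, MRPL22, MRPL17 and MRPL15 had log2 fold changes between -0.29 and -0.12, with FDR between 0.011 and 0.041. Of these 9, some lost their call when 1 library was left out, with a fitted change of the same sign. The calls of MRPL15 and MRPL22 were lost whichever library was left out (FDR of up to 0.12 and 0.099). Their log2 fold changes then ranged from -0.14 to -0.10 and from -0.27 to -0.20. That of MRPL17 was lost without CON replicate 2 or any 1 CDCA library (up to 0.077), at -0.16 to -0.15 over the libraries left out. That of MRPL13 was lost without CON replicate 1 or 3 or CDCA replicate 2 (up to 0.062). MRPL34 lost its call without CON replicate 1 or 3 or CDCA replicate 1 (up to 0.055), and MRPL46 without CON replicate 1 or 3 or CDCA replicate 3 (up to 0.057). MRPL4 lost its call with the highest listed transcript (FDR 0.073), and without CON replicate 3 and CDCA replicate 2 together (0.054). MRPL17 and MRPL22, which surround the exit tunnel, were the 2 members of that region that fell, and in RefSeq MRPL17 overlaps a lncRNA and MRPL22 a pseudogene.

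**Figure D4:**
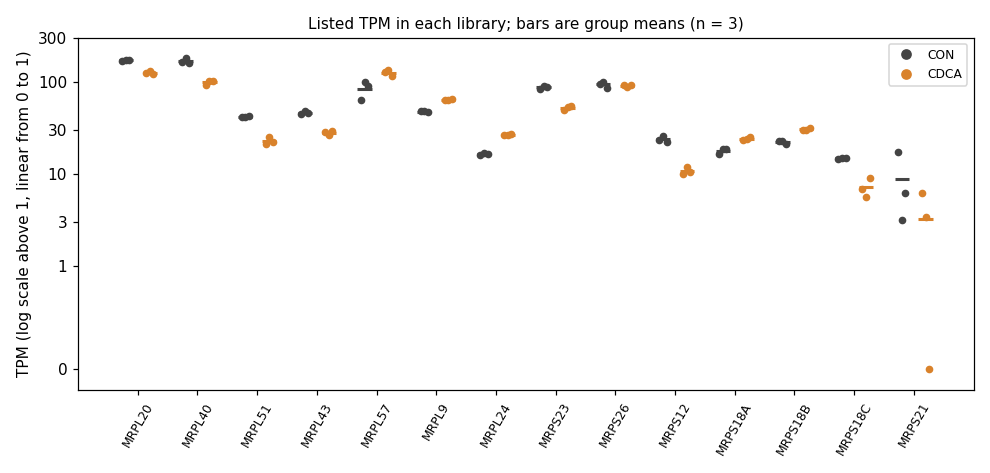
TPM of 14 members in each library (log axis above 1 TPM, linear from 0 to 1); points are libraries, horizontal bars are group means (n = 3). CON and CDCA separate for MRPL51, MRPL40, MRPS12 and MRPS23 (CDCA lower) and for MRPL24, MRPL9 and MRPS18B (CDCA higher), whereas MRPS26 and MRPS21 overlap.

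Other large-subunit members moved in the opposite direction. MRPL24, which lies beside the exit tunnel, rose from 16.1, 17.1 and 16.7 TPM in the CON libraries to 26.3, 26.9 and 27.3 TPM in the CDCA libraries. This change of 0.66 ± 0.05 (FDR = 6.3e-05) was the largest rise among the tested members, at 1.61 times the CON mean, and the groups were far apart relative to their spread. MRPL57, a small protein particular to mitochondria and one of the 3 most abundant members, was at 63.9, 98.3 and 90.2 TPM across the CON libraries and 127, 133 and 117 TPM across the CDCA ones. Its log2 fold change was 0.60 ± 0.15 (FDR = 0.017), with CON replicate 1 well below the other CON libraries. Without CDCA replicate 2 the FDR of MRPL57 was 0.053, and in RefSeq the gene overlaps SKA3, a mitotic spindle gene.

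MRPL9, with a bacterial counterpart, was at 47.8, 47.8 and 47.2 TPM with PBS and 62.8, 64.2 and 64.7 TPM with CDCA (log2FC 0.42 ± 0.04, FDR = 0.00013), and the spread within each group was a small part of the difference. It overlaps OAZ3 in RefSeq. MRPS18A, which in mammals sits in the large subunit, rose from 16.5, 18.6 and 18.9 TPM in the CON libraries to 23.5, 23.8 and 25.6 TPM in the CDCA libraries (log2FC 0.41 ± 0.07, FDR = 0.0023). MRPL48 of the central protuberance was at 8.88, 8.78 and 8.23 TPM in CON against 10.4, 10.8 and 12.5 TPM in CDCA (log2FC 0.34 ± 0.08, FDR = 0.011), a call lost with totals without the mitochondrially encoded genes (FDR 0.076). In the central protuberance 2 of 8 tested members rose (25.0%, against 29.3% of all genes tested) and 4 of 8 fell (against 23.9%), with a median of -0.11. No member of this region rose with totals without the mitochondrially encoded genes (median -0.25), and 1 rose without CON replicate 1 or 3 or CDCA replicate 2 or 3. Around the exit tunnel 1 of 7 rose, MRPL24 (14.3%), and 2 fell (28.6%, near the share of all genes), with a median of -0.14. None of these 7 fell without any 1 of the CDCA libraries, and 1 fell without CON replicate 1 or 2. With totals without the mitochondrially encoded genes 5 fell (median -0.29). Over all genes tested these totals gave a median of -0.08, and 38.7% of those that passed were higher, against 55.0% with TPM as listed. The sixth large-subunit member that rose, MRPL38 of the central protuberance, was at 30.5, 32.7 and 31.7 TPM across the CON libraries and 33.7, 36.4 and 36.0 TPM across the CDCA ones (log2FC 0.16 ± 0.05, FDR = 0.037). Its call was lost without any 1 library other than CDCA replicate 1 (FDR of up to 0.11), and with totals without the mitochondrially encoded genes its log2 fold change was 0.0064 (FDR 0.92). The 15 large-subunit members that did not pass had log2 fold changes between -0.32 (MRPL35) and 0.19 (MRPL55). Among them the groups did not overlap in MRPL16, MRPL39 and MRPL3, with CDCA lower, and in MRPL52 and MRPL41, with CDCA higher. Over all genes tested, passing or not, 27.8% did not overlap with CDCA lower and 33.7% with CDCA higher. Of the stalk and its base only MRPL12, which fell, and MRPL11 were tested. MRPL11 was at 6.01, 4.79 and 6.83 TPM with PBS and 3.37, 6.54 and 9.24 TPM with CDCA, with a log2 fold change of 0.03 ± 0.30 (FDR = 0.94), so its CDCA libraries spanned the whole CON range.

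Among small-subunit members MRPS12 showed the largest fall that passed. Its protein lies at the decoding centre, where the codon is read, and is among the most conserved of all ribosomal proteins. MRPS12 was at 23.4, 25.7 and 22.4 TPM in CON against 10.1, 12.1 and 10.5 TPM in CDCA. The CDCA mean was 0.456 times the CON mean (log2 fold change -1.07 ± 0.08, FDR = 9.4e-05), and both listed transcripts were lower, with ratios of 0.465 and 0.442. Its log2 fold change stayed between -1.21 and -1.01 under all 15 alternatives.

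MRPS18C was at 14.6, 15.0 and 14.8 TPM across the CON libraries and 6.94, 5.69 and 9.03 TPM across the CDCA ones (log2FC -0.96 ± 0.14, FDR = 0.0015), and it overlaps ABRAXAS1 and HELQ in RefSeq. Its change crossed 1 in size under 6 of the 15 alternatives, 1 of them without CDCA replicate 3. MRPS23, one of the 3 most abundant small-subunit members and particular to mitochondria, was at 84.6, 89.4 and 86.9 TPM with PBS and 49.3, 52.8 and 55.3 TPM with CDCA (log2FC -0.72 ± 0.05, FDR = 6.7e-05). The CDCA libraries of MRPS23 were all well below CON, and both of its main transcripts were lower, at 0.596 and 0.610 times the CON mean. MRPS25 fell from 21.9, 19.5 and 22.8 TPM in the CON libraries to 14.2, 13.0 and 14.4 TPM in the CDCA libraries (log2FC -0.59 ± 0.07, FDR = 0.00071), with an overlap with NR2C2 in RefSeq. MRPS27, an RNA-binding protein with pentatricopeptide repeats, was at 17.4, 18.7 and 14.6 TPM in CON against 11.3, 12.4 and 11.0 TPM in CDCA (log2FC -0.50 ± 0.10, FDR = 0.0053), and overlaps PTCD2 in RefSeq. The other 3 that fell were MRPS34, MRPS28 and MRPS22. MRPS34, needed for stable small-subunit ribosomal RNA, was at 3.00, 4.04 and 3.87 TPM across the CON libraries and 2.53, 2.45 and 2.63 TPM across the CDCA ones (log2FC -0.38 ± 0.11, FDR = 0.026). MRPS28 was at 32.8, 27.3 and 28.4 TPM with PBS and 24.4, 25.5 and 23.4 TPM with CDCA (log2FC -0.26 ± 0.08, FDR = 0.027). MRPS22 was at 2.20, 2.11 and 2.04 TPM in CON against 1.65, 1.49 and 1.63 TPM in CDCA (log2FC -0.27 ± 0.09, FDR = 0.049), close to the threshold and at low levels, and it overlaps COPB2 in RefSeq. The call of MRPS22 was lost whichever library was left out (FDR of up to 0.12), that of MRPS34 without any 1 library other than CON replicate 1 (up to 0.087), and that of MRPS28 without CDCA replicate 1 or 3 (up to 0.083).

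In the small subunit 4 genes rose, not all of them as firmly. MRPS18B was at 22.9, 22.8 and 21.4 TPM across the CON libraries and 29.9, 29.9 and 31.8 TPM across the CDCA ones (log2FC 0.43 ± 0.05, FDR = 0.00055), with both groups tight, and overlaps PPP1R10 in RefSeq. MRPS9, with a bacterial counterpart, was at 13.9, 14.3 and 13.8 TPM with PBS and 18.4, 17.4 and 18.6 TPM with CDCA (log2FC 0.35 ± 0.05, FDR = 0.0014). Both were called under every alternative. MRPS31 was at 9.19, 10.8 and 7.40 TPM in CON against 12.6, 14.4 and 11.4 TPM in CDCA (log2FC 0.45 ± 0.14, FDR = 0.031), and lost its call under 8 of the 15 alternatives, with an FDR of up to 0.093 where CON replicate 1 or 3 or CDCA replicate 1 or 2 was left out. MRPS33 was at 19.9, 19.8 and 17.7 TPM across the CON libraries and 21.6, 23.2 and 22.3 TPM across the CDCA ones (log2FC 0.22 ± 0.06, FDR = 0.024), and lost its call under 5, with an FDR of up to 0.074 without CDCA replicate 2 or 3. The MRPS18 genes encode related proteins that occupy different places, MRPS18A in the large subunit and MRPS18B and MRPS18C in the small. MRPS18A and MRPS18B stood at 1.35 and 1.36 times their CON means in CDCA, and MRPS18C at 0.487 times.

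Some abundant small-subunit genes did not pass. MRPS26, with the highest mean TPM of the subunit, was at 94.5, 99.8 and 86.4 TPM with PBS and 91.4, 87.5 and 92.5 TPM with CDCA (log2FC -0.05 ± 0.06, FDR = 0.54), and passed as lower only with totals without the mitochondrially encoded genes (FDR 0.030). MRPS11, with a bacterial counterpart, was at 38.6, 38.6 and 37.5 TPM in CON against 37.5, 43.8 and 40.5 TPM in CDCA (log2FC 0.08 ± 0.06, FDR = 0.31). The groups of both genes overlapped. MRPS26 overlaps GNRH2 in RefSeq. MRPS21 had the largest fitted fall of any tested member, but its libraries were scattered, at 17.3, 3.19 and 6.31 TPM across the CON libraries and 6.29, 3.44 and 0 TPM across the CDCA ones, with CDCA replicate 3 listed at 0. Its log2 fold change of -1.37 ± 0.83 (FDR = 0.21) did not pass, and ranged from -1.97 to -0.54 when 1 library was left out. Of the other small-subunit members that did not pass, MRPS7 was at 37.1, 35.7 and 37.5 TPM with PBS and 36.1, 35.2 and 36.2 TPM with CDCA (log2FC -0.04 ± 0.04, FDR = 0.5), with near-equal values in all libraries and overlaps with GGA3 and MIF4GD in RefSeq. MRPS5, MRPS2, MRPS24, MRPS15 and MRPS10 had log2 fold changes between -0.31 and 0.22. Only MRPS24 among these had libraries that did not overlap, with CDCA lower (27.8% of all genes tested). MRPS36, now known as a subunit of the oxoglutarate dehydrogenase complex rather than of the ribosome, was at 13.6, 13.9 and 12.3 TPM in CON against 10.4, 9.87 and 9.56 TPM in CDCA and fell (log2FC -0.38 ± 0.07, FDR = 0.0032).

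Members with a bacterial counterpart were set beside those particular to mitochondria. The first class followed a chosen list that also held MRPL55, a protein particular to mitochondria that did not pass. The number tested and the median of that class include it. Of the first, 15 of 34 tested fell (44.1%, against 23.9% of all genes tested) and 3 rose (8.82%, against 29.3%), with a median log2 fold change of -0.25. Of the second, 9 of 24 fell (37.5%) and 7 rose (29.2%, the latter near the share of all genes), with a median of -0.13. In this second class 3 members rose without CDCA replicate 2, and the median was -0.06 without CON replicate 1. With totals without the mitochondrially encoded genes 21 of the first class fell (median -0.38), and of the second class 13 fell and 3 rose (median -0.25). All genes tested shifted too with these totals, to a median of -0.08. Of them 52.0% passed, and 38.7% of those that passed were higher, against 55.0% with TPM as listed. The rises of the first class were MRPL9, MRPL24 and MRPS9. The difference between the classes was not tested.

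The 8 members with a mean under 1 TPM were not tested. In the large subunit MRPL10, a stalk-base protein, was at 0.08, 1.08 and 0.71 TPM across the CON libraries and 1.58, 0.93 and 1.50 TPM across the CDCA ones. MRPL37 was at 0.23, 0.31 and 0.20 TPM with PBS and 0.12, 0.15 and 0.10 TPM with CDCA. MRPL49, which overlaps FAU and SYVN1 in RefSeq, was at 0.08, 0.04 and 0.17 TPM in CON against 0.24, 0.09 and 0.12 TPM in CDCA. Of these 3, MRPL37 had CDCA values below CON, and the others overlapped between the groups. MRPL54 was at 0.85, 0.87 and 0.95 TPM across the CON libraries and 0.95, 0.69 and 0.42 TPM across the CDCA ones. MRPL58, a peptidyl-tRNA hydrolase that frees stalled chains, was at 1.18, 0.95 and 1.15 TPM with PBS and 1.25, 0.68 and 0.75 TPM with CDCA. Both were near the limit of 1 TPM, with groups that overlapped. In the small subunit MRPS14 was at 1.29, 0.64 and 0.96 TPM in CON against 0.70, 0.46 and 0.79 TPM in CDCA. MRPS16 was at 0.49, 0.28 and 0.67 TPM across the CON libraries and 0.40, 0.63 and 0.53 TPM across the CDCA ones. MRPS35 was at 0.24, 0.46 and 0.04 TPM with PBS and 0.48, 0.53 and 0.90 TPM with CDCA. Of these 3 only MRPS35 did not overlap between the groups, with CDCA higher, at levels under 1 TPM. These are sums over the listed transcripts, and transcripts that are not listed add nothing to them.

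Among the tested members 36 had more than 1 listed transcript and 23 had 1. In 22 members at least 2 transcripts reached 1 TPM, and in 8 of these 1 transcript had a CDCA mean above its CON mean and another one below it, by any amount: MRPL11, MRPL15, MRPL18, MRPL19, MRPL28, MRPL39, MRPS2 and MRPS30. Transcripts were not tested, and in MRPL15 and MRPS2 the higher transcript was at 1.001 and 1.010 times its CON mean, within the spread of the libraries. In MRPL28 the main transcript stood at 24.3 TPM in CON and 19.7 TPM in CDCA, and the second at 2.41 and 3.28 TPM (means of 3). In MRPS2 the main transcript was at 12.2 and 12.3 TPM, and the second at 5.17 and 1.96 TPM with CDCA replicate 1 listed at 0. With the highest listed transcript of each gene in place of the sum, the small-subunit ratio was 0.894.

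Proteins of the mitochondrial ribosome with other symbols were listed for 5 genes, all tested. AURKAIP1, CHCHD1 and GADD45GIP1 fell (3 of 5, against 23.9% of all genes tested; 2 of 5 without CON replicate 1 or 2), DAP3 and PTCD3 did not pass, and the median log2 fold change was -0.38. CHCHD1 was at 17.5, 15.5 and 15.6 TPM in CON against 10.5, 10.7 and 10.8 TPM in CDCA (log2FC -0.56 ± 0.06, FDR = 0.00041). GADD45GIP1, also known as CRIF1, was at 17.0, 18.1 and 18.0 TPM across the CON libraries and 13.2, 13.2 and 13.7 TPM across the CDCA ones (log2FC -0.38 ± 0.05, FDR = 0.001). AURKAIP1 was at 9.72, 10.1 and 8.68 TPM with PBS and 3.46, 6.52 and 6.63 TPM with CDCA (log2FC -0.72 ± 0.21, FDR = 0.026). This call was lost under 4 of the 15 alternatives, with an FDR of up to 0.075 without CON replicate 1 or 2. The log2 fold change of AURKAIP1 ranged from -0.86 to -0.47 when 1 library was left out. DAP3, a GTP-binding protein of the small subunit, was at 30.6, 31.4 and 26.5 TPM in CON against 29.6, 32.2 and 32.6 TPM in CDCA (log2FC 0.09 ± 0.08, FDR = 0.35).

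Factors that work with the mitochondrial ribosome were tested for 16 of 17 listed genes. Of these 6 fell (37.5%, against 23.9% of all genes tested) and 2 rose (12.5%, against 29.3%), with a median log2 fold change of -0.09. Without CDCA replicate 3 the number that fell was 3 of 15 tested, and without CON replicate 2 it was 4, with 3 rises. With totals without the mitochondrially encoded genes 8 fell, and the median was -0.20. Over all genes tested the median was then -0.08, and 38.7% of those that passed were higher, against 55.0% with TPM as listed. TUFM, the elongation factor that brings aminoacyl-tRNA to the ribosome, was at 103, 109 and 100.2 TPM across the CON libraries and 71.8, 76.5 and 70.7 TPM across the CDCA ones (log2FC -0.51 ± 0.05, FDR = 0.00025). GUF1, a GTPase related to bacterial LepA, was at 9.21, 8.99 and 7.45 TPM with PBS and 6.14, 5.30 and 5.86 TPM with CDCA (log2FC -0.49 ± 0.10, FDR = 0.0053). MTRFR, a rescue factor for stalled ribosomes, changed by -0.54 ± 0.15 (FDR = 0.021), and lost its call without CDCA replicate 3 (FDR 0.066). LRPPRC, which stabilises mitochondrial mRNAs, changed by -0.38 ± 0.06 (FDR = 0.0014). The initiation factor MTIF2 rose, from 15.8, 14.9 and 13.9 TPM in the CON libraries to 20.8, 20.0 and 21.3 TPM in the CDCA libraries (log2FC 0.45 ± 0.06, FDR = 0.00097), as did the recycling factor MRRF, from 14.0, 12.8 and 13.1 TPM in the CON libraries to 18.3, 18.4 and 16.1 TPM in the CDCA libraries (log2FC 0.37 ± 0.07, FDR = 0.0045). In RefSeq MTIF2 overlaps CCDC88A and MRRF overlaps RBM18.

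**Figure D5:**
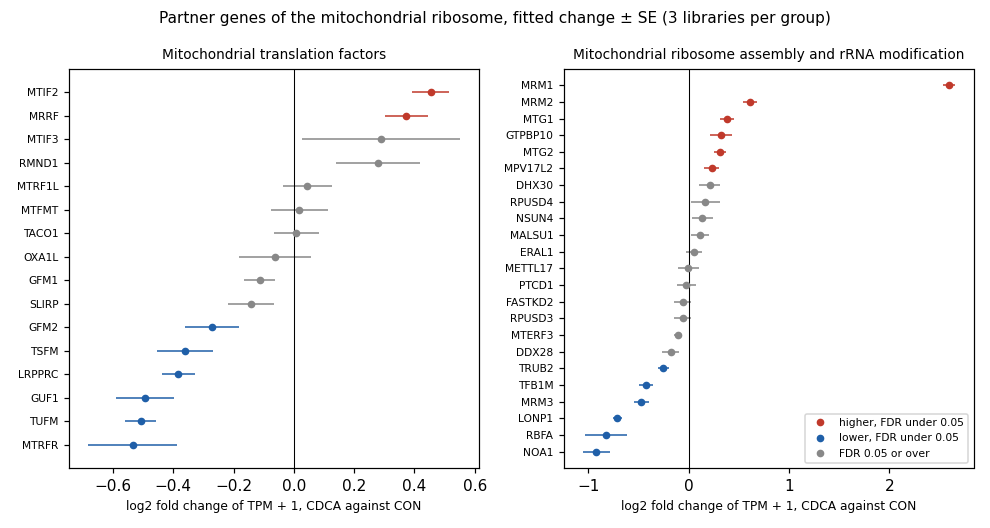
Fitted log2 fold change of TPM + 1 (CDCA against CON, ± SE, 3 libraries a group) of mitochondrial translation factors (16 tested) and of factors of ribosome assembly and rRNA modification (23 tested). Red points rose and blue points fell with an FDR under 0.05 (2 and 6; 6 and 6), and MRM1 stands apart at 2.59.

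Of the factors of ribosome assembly and ribosomal RNA modification, 26 genes were found and 23 were tested. As many rose as fell, 6 each or 26.1%, shares near those of all genes tested (29.3% and 23.9%), and the median log2 fold change was -0.002. MRM1, which methylates a ribose of the large-subunit ribosomal RNA, showed by far the largest change, from 24.1, 26.6 and 28.3 TPM in the CON libraries to 164, 162 and 165 TPM in the CDCA libraries. This was 6.21 times the CON mean (log2FC 2.59 ± 0.06, FDR = 2.4e-06), and its 2 main transcripts stood at 6.03 and 8.80 times. MRM2 and MRM3 methylate adjacent riboses elsewhere in the same RNA. MRM2 rose from 10.7, 10.2 and 9.92 TPM in the CON libraries to 17.7, 15.6 and 15.3 TPM in the CDCA libraries (log2FC 0.61 ± 0.07, FDR = 0.00052), whereas MRM3 fell, with a change of -0.47 ± 0.08 (FDR = 0.0027). MTG1, a GTPase of large-subunit assembly, changed by 0.38 ± 0.07 (FDR = 0.0036), a call lost with the highest listed transcript (FDR 0.16).

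The assembly genes that fell included NOA1, a GTPase of mitochondrial ribosome assembly, at 4.70, 6.19 and 6.03 TPM in CON against 3.05, 2.23 and 2.26 TPM in CDCA (log2FC -0.92 ± 0.14, FDR = 0.0016). RBFA, which helps mature the small-subunit ribosomal RNA, changed by -0.82 ± 0.21 (FDR = 0.015), with an FDR of 0.051 without CON replicate 2. LONP1, the protease of the mitochondrial matrix, was at 50.8, 51.2 and 48.7 TPM across the CON libraries and 30.9, 31.4 and 28.8 TPM across the CDCA ones (log2FC -0.71 ± 0.05, FDR = 5.7e-05). With totals without the mitochondrially encoded genes 3 assembly genes rose and 8 fell, with a median of -0.14. All genes tested shifted as well, to a median of -0.08, and 38.7% of those that passed were higher, against 55.0% with TPM as listed.

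The templates of the mitochondrial ribosome and the ribosome of the cytosol served as comparison families. All 13 mRNAs of mitochondrial DNA fell (against 23.9% of all genes tested), each by more than 1 on the log2 scale (a change over 1 in size passed in 7.42% of all genes tested). Their median log2 fold change was -2.26, with summed levels of 51847 ± 2854 TPM in CON and 11431 ± 880.6 TPM in CDCA (SD, n = 3). The largest falls were those of COX1 (log2FC -2.84 ± 0.06, FDR = 1.8e-06), COX3 (log2FC -2.70 ± 0.05, FDR = 1.8e-06) and COX2 (log2FC -2.41 ± 0.08, FDR = 4e-06), subunits of cytochrome c oxidase, and COX3 overlaps ATP6. Thus the summed mitochondrial mRNAs stood at 0.22 times their CON level, and the summed members at 0.869 times.

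Of the cytosolic ribosomal protein genes 60 of 63 were tested, and 47 rose (78.3%, against 29.3% of all genes tested) and 3 fell (5%, against 23.9%), with a median log2 fold change of 0.36. With totals without the mitochondrially encoded genes the counts were 40 and 5 and the median 0.21 (-0.08 over all genes tested), so the direction was the same. Their summed level was 1.31 times the CON level. RPL4 (log2FC 0.69 ± 0.04, FDR = 2.3e-05), RPL37 (log2FC 0.63 ± 0.22, FDR = 0.046) and RPL10 (log2FC 0.60 ± 0.05, FDR = 0.00016) rose most. RPL35A (log2FC -0.83 ± 0.07, FDR = 0.00016), RPL7L1 (log2FC -0.46 ± 0.04, FDR = 0.00023) and RPL30 (log2FC -0.45 ± 0.12, FDR = 0.021) fell. The family was taken by a pattern of gene names, which admitted RPL7L1, a like-named relative of RPL7. RPL35A and RPL30 were listed at only 11.05 and 9.16 TPM in CON (means of 3), against a median of 665 TPM over the 63 genes. Their falls hold for these listed transcripts only. RPL37 lost its call without CON replicate 1 or 2 or CDCA replicate 2 or 3 (FDR of up to 0.12) and under each scaling without the mitochondrially encoded genes. RPL30 lost its call without CDCA replicate 1 or 3 (up to 0.065). Cytosolic ribosomal protein genes have many processed copies in the genome, so that their values are uncertain where reads were shared. The share of tested genes that rose was 78.3% in this family and 16.9% among the members, a difference in counts for which no test was made.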

How the data were processed

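RNA from IPEC-J2 cells treated for 24 h was made into 6 TruSeq libraries (CON and CDCA, 3 each) and sequenced on an Illumina platform by the authors. The deposited file held TPM per transcript, which the authors estimated with RSEM and which carry pig Ensembl gene identifiers. The submitters' processing notes name Bowtie 0.12.2 and mm10, a mouse build, so the build behind the values is not settled here and no coordinates are given. TPM keep no read depth, so no counting intervals could be set, and the authors' edgeR test, which needs counts, was not repeated.

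TPM were summed over the transcripts of each gene, and limma 3.58.1 (lmFit and eBayes with a trend, R 4.3.3) was fitted to log2(TPM + 1) of the 8708 genes averaging 1 TPM or more, two-sided, with no covariate. The pseudocount understates the changes of low genes. A gene passed with an FDR under 0.05. The script was tested on simulated data. The study calls the replicates biological, but the labels and methods do not say that they were separate cultures, so the tests measure the spread between these libraries, which may be technical. The labels give both groups the numbers 1 to 3, which paired no samples.

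The members and lists were chosen with earlier results of these data known. Named members were, per subunit, the 5 largest rises and falls that passed, the 3 highest and 3 lowest by mean TPM, any change over 1, any member under 1 TPM, and MRPL12, MRPL58 and MRPS36; from other lists, the 3 largest changes in each direction. LRPPRC, MRM3, DAP3 and every other member given a value, such as MRPS21, MRPL36 and MRPS7, were named after their values were seen. Overlaps between genes come from the RefSeq table of the pig, which placed 65 of the 67 members, 20 of which overlap another gene. Whether counting used strand is not given in the sources used here. No promoter or protein sequence was used here.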

Additional observations from a re-analysis of the deposited data

How the results depend on the processing

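The alternatives were followed in 112 genes: the tested members, the 5 genes with other symbols, the tested factors and the named genes of the comparison families. Over the 15 alternatives 1474 values kept their side of the threshold, 146 no longer passed and 51 newly passed. Of these genes 67 passed as reported. None of the 67 changed sign under an alternative that gave it a value, and 22 lost their call when 1 of the 6 libraries was left out. This held for 13 of the 35 members that passed. Of the genes that did not pass, 17 changed sign. The members' median stayed below 0, between -0.31 and -0.15. A pseudocount of 0.1 TPM gave 2 members with a change over 1 in size in place of 1, and no filter on low values gave 5 small-subunit falls. Totals without the mitochondrially encoded genes gave 6 rises (2 of the small subunit), 3 changes over 1, medians of -0.30 (large) and -0.39 (small) and ratios of the sums of 0.786 and 0.771. With these totals set against 1000000 TPM, added after seeing the data, 2 changes were over 1, the large median was -0.20 and the ratios were 0.838 and 0.822. Median ratio scaling gave 2 changes over 1, a large median of -0.21 and ratios of 0.844 and 0.828. Rescaling to 1000000 gave 2 changes over 1, and the highest listed transcript a small ratio of 0.894. Leaving out each library in turn gave 6 to 10 rises, 2 to 4 small-subunit rises, 5 to 8 small-subunit falls, 1 to 2 changes over 1, a large median of -0.19 to -0.11 and a large minus small difference of 0.033 to 0.138. Without CON replicate 3 and CDCA replicate 2, 5 members rose (3 large, 2 small) and 5 small-subunit members fell. Without the 2 highest members of each subunit the ratios were 0.946 and 0.897. Both of these were added after seeing the data. For the scalings the totals themselves moved, and for libraries left out there were fewer samples. Elsewhere the cause was not tested. The replicate numbers did not pair the libraries (correlations of deviations -0.035, -0.092 and -0.051), and with the replicate number as a block 10 members rose and 23 fell. TPM carry no depth, and 10 tested members had means under 5 TPM.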

Other observations

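Of the gene identifiers without a deposited name, 3 carry an MRPL or MRPS symbol in the reference table of gene names, and these were left out of the members. MRPS6, with a bacterial counterpart in the small subunit, was at 80.3, 71.7 and 76.6 TPM in the CON libraries and 51.9, 56.6 and 53.0 TPM in the CDCA libraries. The fitted log2 change of MRPS6 was -0.49 ± 0.06 (SE) with a limma FDR of 0.00049 and no overlap between the groups. MRPL2 was at 22.1, 22.2 and 18.6 TPM in CON and 23.2, 23.7 and 19.6 TPM in CDCA, and did not pass (0.07 ± 0.10, limma FDR = 0.56). MRPL30 stayed between 0.20 and 0.47 TPM in all libraries and was not tested. The RefSeq table, limited to genes placed on numbered chromosomes, X, Y or mitochondrial DNA, holds 75 symbols of the MRPL and MRPS pattern. Of these, 10 are not among the deposited names.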
